A study of Mus musculus with 6 samples.

Results

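A set of 10 genes of the actin cytoskeleton that are highly expressed in lymphocytes were followed in sorted neonatal lung ILC2s (group 2 innate lymphoid cells), namely Tmsb4x, Tmsb10, Actb, Actg1, Cfl1, Pfn1, Coro1a, Arpc1b, Arpc2 and Arhgdib. They were taken by gene symbol, and each of the 10 symbols matched 1 of the 55394 genes in every library. The 6 SMART-seq libraries each came from 1000 cells sorted as CD45+Lin-CD90.2+CD25+ from the lungs of wild-type C57BL/6 mouse neonates. The 3 Abx libraries were from pups of dams that drank ampicillin, metronidazole, neomycin and vancomycin from gestation day 10 to 14, and the 3 Con libraries were from pups of control dams. The number of pups behind each library, their sex and their postnatal age at the sort are not given in the sources used here, so p-values measure the spread between these libraries, which may be technical in part. The comparison asked whether maternal antibiotic exposure went with a different level of these messages in the ILC2s of the pups.

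Actin exists as free monomers (G-actin) and as filaments (F-actin) that grow at one end and shrink at the other. Beta thymosins bind monomers and hold them in reserve, profilin passes monomers to growing ends, cofilin severs old filaments, and the Arp2/3 complex starts new branches on existing ones. In lymphocytes this turnover shapes the cell, drives its migration through tissue and organizes its contacts with other cells. Part of the gene set is controlled by the monomer pool itself, since free actin holds back the coactivators of SRF, a transcription factor that binds the CArG box.

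The 10 genes are placed here by the GENCODE M21 annotation of GRCm38, since the files give no coordinates. Tmsb4x (ENSMUSG00000049775) lies at chrX:167207093-167209315 and Tmsb10 (ENSMUSG00000079523) at chr6:72957347-72958748. Actb (ENSMUSG00000029580) lies at chr5:142903115-142906754 and Actg1 (ENSMUSG00000062825) at chr11:120345690-120348542. All 4 are on the minus strand.

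The 2 thymosins and the 2 cytoplasmic actins are shown first because reads must be assigned between such related messages. The coding sequences of Tmsb4x and Tmsb10 (GENCODE M21) are both 135 bases long and differ at 40 of them, an identity of 70.4%. They are printed whole, 5′ to 3′, with the differing bases in capitals:
Tmsb4x: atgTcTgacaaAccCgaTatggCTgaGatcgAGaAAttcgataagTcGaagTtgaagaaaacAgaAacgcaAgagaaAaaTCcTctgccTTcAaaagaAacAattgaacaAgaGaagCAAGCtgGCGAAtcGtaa
Tmsb10: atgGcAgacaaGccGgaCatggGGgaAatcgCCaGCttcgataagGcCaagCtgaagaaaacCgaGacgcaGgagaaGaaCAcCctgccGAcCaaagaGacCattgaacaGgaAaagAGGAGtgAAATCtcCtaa

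The coding sequences of Actb and Actg1 are both 1128 bases long and differ at 128 of them, an identity of 88.7%. Their first 60 bases, of which 9 differ, are printed 5′ to 3′ with the differing bases in capitals:
Actb: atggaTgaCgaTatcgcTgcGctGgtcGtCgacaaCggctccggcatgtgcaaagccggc
Actg1: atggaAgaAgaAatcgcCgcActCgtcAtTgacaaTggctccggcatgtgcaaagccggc

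The members were also scanned for the CArG box on both strands of the RefSeq promoter windows (GRCm38.p6, 250 bases before to 50 bases after the start of each gene). Of the 9 members with a window, 1 held a box, which was Actg1. Actb had no window, so whether its promoter holds a box was not checked. Boxes were found in 488 of the 27025 genes with a window (1.81%) and in 6 of the 81 other actin cytoskeleton genes with one (7.41%). The box of Actg1 began 90 bases before the start site, and it is printed 5′ to 3′ on the minus strand (chr11:120348561-120348600) with the box in capitals because Actg1 is the member that differed most between the groups:
Actg1: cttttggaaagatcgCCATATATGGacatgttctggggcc

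Across the 6 libraries Tmsb4x was among the 2 most abundant of all genes, and it held more FPKM than the other 9 members together in 5 of them. FPKM is a fragment count scaled to transcript length and to library size, so levels can be compared between genes. The FPKM of Tmsb4x was 12906, 8676 and 9027 in Con, against 8725, 18658 and 10547 in Abx, with the highest level in Abx library 2, and the groups overlapped. It ranked 1, 2 and 2 among all genes in Con, against 2, 1 and 2 in Abx, and the other gene at these places was CT010467, annotated as a ribosomal RNA. By mean share the 5 leading genes were CT010467, Tmsb4x, B2m, mt-Rnr2 and Limd1.

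The order of the leading members was the same everywhere, with Tmsb4x above Actb and Actb above Tmsb10 in all 6 libraries. Actb ranked between 7 and 24, Tmsb10 between 38 and 48, Arhgdib between 56 and 72, and Pfn1 between 59 and 108. Cfl1 ranked between 97 and 109, Coro1a between 89 and 141, and Arpc2 between 137 and 222. Arpc1b was the lowest member in all 6 libraries, with ranks of 284 to 380. In the middle of the order Coro1a and Cfl1 did not separate beyond their spread, with Coro1a above Cfl1 in 4 of 6 libraries. Cfl1 lay above Actg1 in 3 of 6, which were the 3 Abx libraries. Actg1 took place 7, 5 and 5 among the 10 members in Con and place 8, 9 and 8 in Abx.

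**Figure D1:**
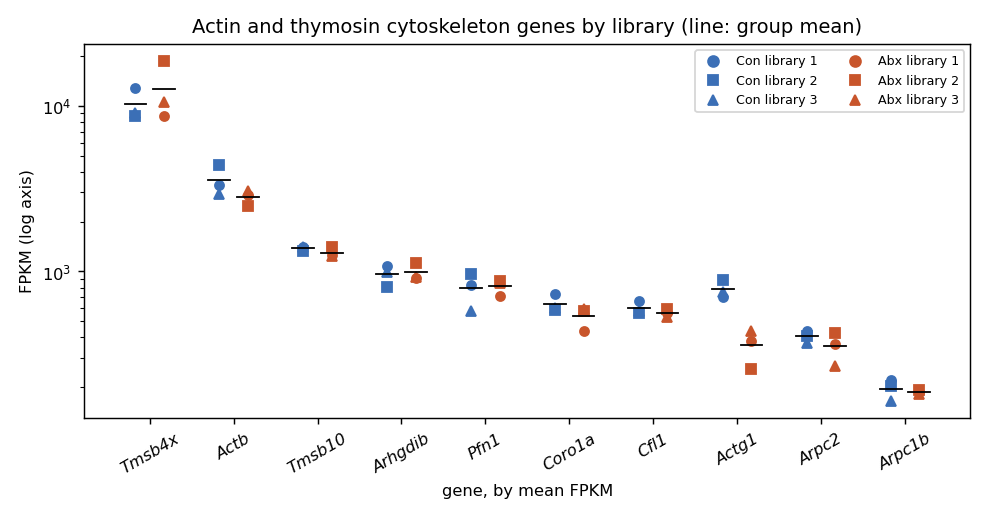
FPKM (log axis) of the 10 genes in each library, ordered by mean, with Con in blue, Abx in orange, a marker shape for each replicate number (shapes do not pair libraries) and a line at each group mean. Actg1 is the one gene whose 3 Abx points (259 to 434 FPKM) all lie below its 3 Con points (706 to 888 FPKM).

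The 10 genes together held between 3.67% and 5.44% of the summed FPKM of a library. The share was 4.96%, 4.45% and 4.14% in Con, against 3.67%, 5.44% and 4.32% in Abx, with means of 4.52% ± 0.415 (SD, n = 3) and 4.47% ± 0.893 (SD, n = 3), and the groups overlapped. Tmsb4x set most of the spread in Abx, where its own share was 1.95%, 3.81% and 2.44% against 2.87%, 2.05% and 2.14% in Con. Without Tmsb4x the other 9 genes held 2.09%, 2.40% and 2.00% in Con, against 1.72%, 1.62% and 1.87% in Abx, so that the groups no longer overlapped. This sum without Tmsb4x was not planned and was not tested, and no background was drawn for such sums. Its difference lay mostly in the actins, whose joint share was 0.896%, 1.25% and 0.881% in Con, against 0.735%, 0.562% and 0.807% in Abx.

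**Figure D2:**
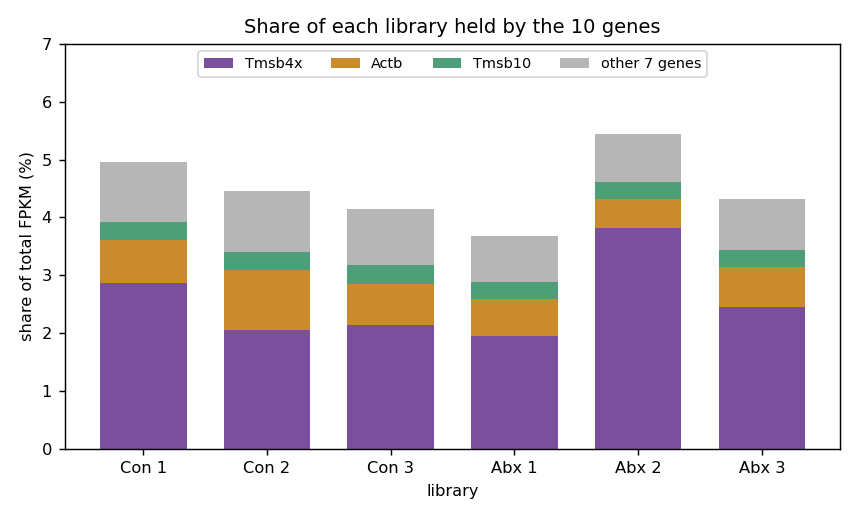
Share of the total FPKM of each library (%, stacked bars from 0) held by Tmsb4x, Actb, Tmsb10 and the other 7 genes. The bar of Abx library 2 is the tallest (5.44%) through its Tmsb4x segment (3.81%), and that of Abx library 1 is the shortest (3.67%).

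In most gene families involved, the member studied here was the main form present. Pfn1 made up at least 99.4% of the summed FPKM of Pfn1 and Pfn2 in every library, and Cfl1 at least 93.5% of that of Cfl1, Cfl2 and Dstn, which encodes destrin. Arpc1b exceeded its paralogue Arpc1a, the alternative form of the same Arp2/3 subunit, with 88.1% to 99.98% of their sum. Coro1a, the coronin typical of blood cells, held 80.9% to 91.1% of the 5 coronins measured. The muscle actins were nearly silent, with Acta1, Actc1 and Actg2 at or below 0.08 FPKM in every library. Acta2, the smooth muscle actin, was at 0.72, 0.88 and 0.72 FPKM in Con libraries, against 2.17, 1.32 and 1.41 FPKM in Abx libraries, groups that did not overlap but that lay near the limit of 1 FPKM used for the test. The 7 markers of fibroblasts and smooth muscle, Acta2 among them, summed to 1.52 to 2.26 FPKM in Con and 2.46 to 7.39 FPKM in Abx, and their part in the Acta2 values was not tested.

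Among the beta thymosins, Tmsb4x held 86.1% to 92.5% of the family and Tmsb10 6.92% to 13.4%. Tmsb15l was at 19.6 to 41.3 FPKM, and Tmsb15a and Tmsb15b2 stayed at or below 0.15 FPKM. Tmsb15b1 was listed at 0 in Abx library 1 and reached 103 FPKM in Abx library 2, the library with the highest Tmsb4x.

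Between the groups, Actg1 was the one member with a difference of more than 2-fold in the means, and it did not pass the test. Actg1 encodes gamma actin, which is close in protein sequence to the beta actin of Actb. Its FPKM was 706, 888 and 754 in Con, against 380.2, 259 and 434 in Abx. Every Abx library lay below every Con library, and Abx library 2 was the lowest. The means were 783 ± 94.7 (SD, n = 3) and 358 ± 89.5 (SD, n = 3), a ratio of Con to Abx of 2.19. The fitted difference of Abx minus Con was −1.15 on the log2(FPKM + 1) scale (SE 0.24), with a limma p of 0.00142 and an adjusted p of 0.0967 over the 8718 genes tested. A call needed both an adjusted p below 0.05 and a change of more than 2-fold, and by p Actg1 was gene 122 in order.

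None of the 10 members was called, beside 4 genes called higher (0.0459%) and 1 called lower (0.0115%) among all genes tested by limma. At an unadjusted limma p under 0.05, the count of members was 1, lower in Abx, where the background was 6.25% lower and 4.74% higher, and 10.2% lower among the 668 genes with a mean of at least 100 FPKM, which is the range of all the members. The groups did not overlap for 1 of 10 members, where 8.73% of all genes tested lay wholly lower in Abx and 8.49% wholly higher. Among those 668 abundant genes, 12.3% lay wholly lower and 29.0% wholly apart in either direction. The count of members is therefore near the background. Of the members 7 were fitted lower and 3 higher, with a median of −0.091. Over all genes tested 53.0% were fitted lower with a median of −0.064, and over the abundant genes 40.3% were fitted lower with a median of 0.11.

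Actb, the gene of beta actin, was at 3323, 4421 and 2956 FPKM in Con libraries, against 2915, 2489 and 3049.96 FPKM in Abx libraries. Con library 2 was the highest and Abx library 2 the lowest, and the groups overlapped through Con library 3 and Abx library 3. The fitted difference was −0.32 (SE 0.20, limma adjusted p = 0.637). Set against Actb within the same library, Actg1 stood at 21.2%, 20.1% and 25.5% in Con, against 13.04%, 10.4% and 14.2% in Abx. This ratio does not depend on how a library is scaled. Its groups did not overlap, with a difference in the mean log2 ratio of −0.83 and an exact two-sided permutation p of 0.1, which is the smallest p that 3 libraries against 3 can give. Both this ratio and the Actg1 level use the same Actg1 values and are not separate evidence. Gene models that share reads with Actg1 are treated after the other members.

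The thymosins did not differ beyond their spread. The mean FPKM of Tmsb4x was 10203 ± 2348 (SD, n = 3) for Con libraries and 12643 ± 5288 (SD, n = 3) for Abx libraries, with a fitted difference of 0.25 (SE 0.31, limma adjusted p = 0.826). One library decided its direction, since without Abx library 2 the difference was −0.065. After quantile normalization the difference was 0, but this was fixed by its ranks (1, 2 and 2 in Con, 2, 1 and 2 in Abx). That scaling keeps only ranks, so it says nothing about the difference of Tmsb4x. Tmsb4x is X-linked, and Xist, the long RNA that coats the inactive X chromosome, was listed at 0 in all of the Abx libraries and at 3.78 to 5.09 FPKM in Con. Eif2s3y, a gene of the Y chromosome, went the other way. Its mean was 0.49 FPKM in Con and 19.7 FPKM in Abx, and the groups did not overlap. These sex-linked messages split by group, so any difference in the sex of the pups cannot be told apart from the exposure here. The part of Xist and of sex in the values of Tmsb4x, Actg1 and the other genes was not tested.

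Tmsb10 was the steadiest member. Its FPKM was 1405, 1326 and 1406 in Con, against 1256, 1396 and 1245 in Abx, with a fitted difference of −0.088 (SE 0.15, limma adjusted p = 0.881). Its coefficient of variation over the 6 libraries was 5.60%, against a median of 27.0% for genes with a mean of at least 100 FPKM. Actg1 had the highest coefficient of the members, 43.3%, followed by Tmsb4x at 34.1% and Actb at 20.7%. The ratio of Tmsb10 to Tmsb4x was 10.9%, 15.3% and 15.6% in Con, against 14.4%, 7.48% and 11.8% in Abx, so the groups overlapped (exact two-sided permutation p = 0.5).

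**Figure D3:**
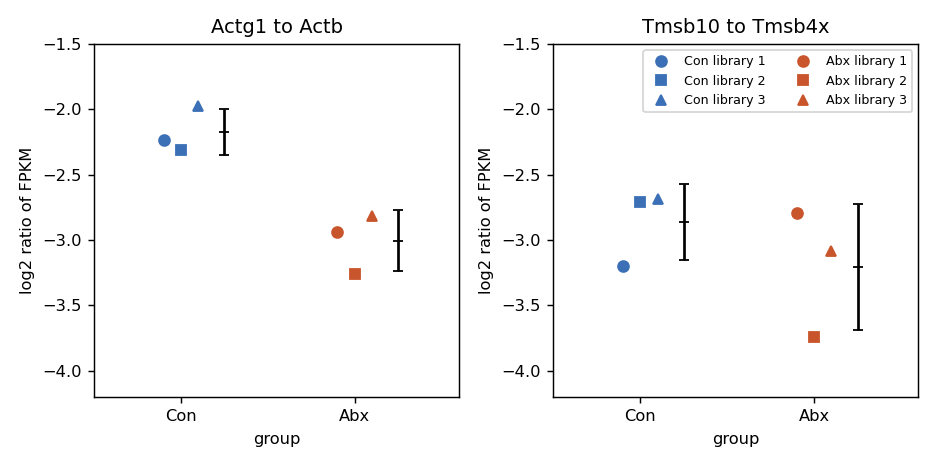
Log2 ratio of FPKM of Actg1 to Actb (left) and of Tmsb10 to Tmsb4x (right) in each library, with bars for the group mean ± SD of 3 libraries. The Actg1 to Actb ratios of the groups lie apart, with means of −2.17 in Con and −3.01 in Abx, while the thymosin ratios overlap.

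Cofilin and profilin, which turn filaments over, did not differ beyond the spread between libraries. Cfl1, which encodes cofilin, was at 659, 561 and 578 FPKM in Con libraries, against 562, 592 and 528 FPKM in Abx libraries, with a difference of −0.095 (SE 0.17, limma adjusted p = 0.885). Pfn1, which encodes profilin, was at 827, 963 and 581 FPKM in Con libraries, against 708, 881 and 856 FPKM in Abx libraries. The Con libraries of Pfn1 spanned the Abx ones, and its fitted difference of 0.069 (SE 0.23, limma adjusted p = 0.939) became −0.011 when each library was scaled to the same total (TPM) and −0.14 without Con library 3.

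Coro1a, which encodes a coronin that binds filaments and is needed for the survival and migration of T cells, was at 728, 583 and 602 FPKM in Con libraries, against 439, 573 and 597 FPKM in Abx libraries. Abx library 1 was the lowest and the groups overlapped, with a difference of −0.25 (SE 0.20, limma adjusted p = 0.713). Of the Arp2/3 subunits, Arpc2 was at 439.6, 406 and 370.2 FPKM in Con libraries, against 366, 425 and 268 FPKM in Abx libraries, with a difference of −0.22 (SE 0.22, limma adjusted p = 0.783). Arpc1b was at 221, 203 and 164 FPKM in Con libraries, against 188, 193 and 183 FPKM in Abx libraries, where its 3 libraries lay within the Con range. Its difference was −0.052 (SE 0.21, limma adjusted p = 0.950), and it became 0.040 without Con library 1.

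Arhgdib, whose product keeps small GTPases that act on actin inactive in the cytosol, was at 1083.5, 809 and 987 FPKM in Con libraries, against 911, 1132 and 925 FPKM in Abx libraries. The groups overlapped, and the difference of 0.047 (SE 0.19, limma adjusted p = 0.950) became −0.033 after scaling to TPM, −0.071 without Con library 2 and −0.054 without Abx library 2.

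**Figure D4:**
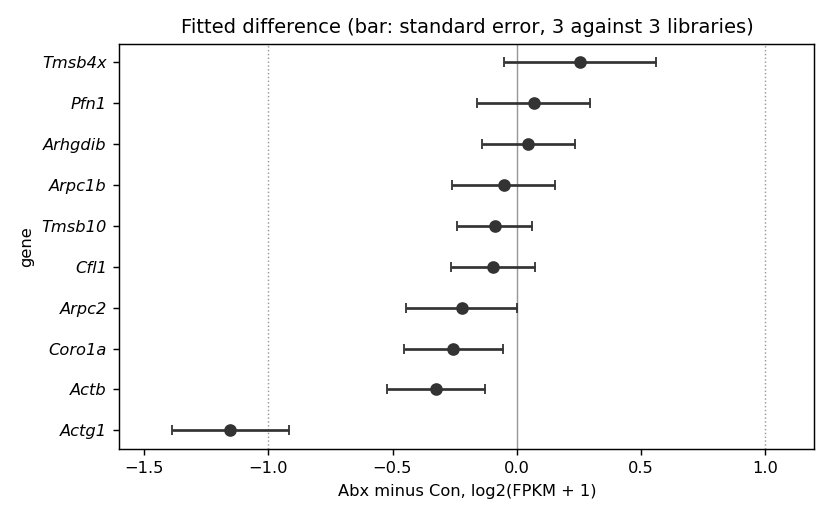
Fitted difference of Abx minus Con for each gene on the log2(FPKM + 1) scale, with bars for the standard error from limma and dotted lines at a 2-fold change. Actg1, at −1.15, is the one gene past the dotted lines, and the other 9 lie between −0.32 and 0.25.

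Expressed as shares of total FPKM in place of FPKM, 4 of the 10 genes lay wholly lower in Abx, Actg1, Tmsb10, Cfl1 and Arpc2, and none wholly higher. On this scale 9.69% of all genes tested lay wholly lower and 7.46% wholly higher, and among those with a mean of at least 100 FPKM these shares were 14.5% and 14.7%. The share of Actg1 was 0.157%, 0.210% and 0.179% in Con, against 0.0848%, 0.0530% and 0.101% in Abx. For Tmsb10 the shares were 0.313%, 0.313% and 0.334% in Con, against 0.280%, 0.285% and 0.288% in Abx, a narrow gap that was absent from its FPKM. The total FPKM was highest in Abx library 2, and whether it or FPKM is the better common scale was not tested.

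Actg1 and Tmsb10 share much of their sequence with other gene models, so reads from such stretches fit more than 1 gene. Of all 50-base windows of the Actg1 transcript, 55.9% also occurred in transcripts of other genes, and for Tmsb10 the figure was 43.5%. It was 14.2% for Actb and 13.4% for Arpc1b, at most 9.15% for Cfl1 and Arpc2, and 0 for Tmsb4x, Pfn1, Coro1a and Arhgdib. Actb and Actg1 themselves shared 1.6% of the windows of Actb and no window of 100 bases. The files held 11 near-identical copies of Actg1 (at least 90% identity across at least 200 bases), and 4 of them reached 1 FPKM in some library.

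The most expressed copy was Gm12715, 99.6% identical to Actg1 over 1128 bases, at 45.0, 56.3 and 205 FPKM in Con libraries, against 43.0, 11.4 and 39.5 FPKM in Abx libraries. The copies of Actg1 summed to at most 28.8% of Actg1 in any library. Adding them to Actg1 gave a difference of −1.21 (limma adjusted p = 0.0967), an alternative chosen after the data were seen. Tmsb10 had 1 copy, Gm9844, at 68.0 to 121 FPKM and at most 9.10% of Tmsb10, and with it added the difference was −0.10 (limma adjusted p = 0.867). How the authors' software divided reads between such copies is not given in the sources used here, so the values of Actg1 and Tmsb10 carry that uncertainty.

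The rest of the actin machinery was followed through 93 further genes, of which 70 passed the filter on low values. None of the 70 was called by limma, and 4 had an unadjusted p under 0.05, all lower in Abx (5.71%, against 6.25% of all genes tested). Their lowest adjusted p was 0.183. Of the 70, 50 were fitted lower (71.4%, against 53.0% of all genes tested) with a median of −0.38. Wholly lower in Abx were 11 (15.7%, against 8.73% of all genes tested and 12.3% of those with a mean of at least 100 FPKM). The listed genes were not matched by level for this count. Wholly higher were 3 of the 70, where the background was 8.49%. These were Acta2, Dock2 and Rdx, the last 2 named after their values were seen. Relative to the mean of Con, the median of the 70 genes was −0.31, −0.34 and −0.17 in Abx, where the values of Con were −0.10, 0.13 and 0.00. The median of the 10 members was −0.14, 0.00 and −0.12 in Abx, against 0.13, −0.03 and −0.10 in Con, where the groups overlapped. Among the genes of the list with a mean of at least 10 FPKM, a limit set after the data were seen, 36 of 47 were fitted lower (76.6%), where the share over all such genes was 47.8%.

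The 4 genes with an unadjusted p under 0.05 act at different steps. Limk1 encodes the kinase that inactivates cofilin and was at 2.64, 9.44 and 16.7 FPKM in Con libraries, against 0.05, 0.78 and 0.10 FPKM in Abx libraries, a difference of −2.78 (SE 0.78, limma adjusted p = 0.183). Tpm4, a tropomyosin that lines filaments, was at 87.3, 103 and 90.9 FPKM in Con libraries, against 2.31, 49.4 and 17.2 FPKM in Abx libraries, a difference of −2.71 (SE 0.88, limma adjusted p = 0.264). In all 4 genes the groups did not overlap. All 3 Abx libraries of Limk1 were under the limit of 1 FPKM, and those of Tpm4 were spread widely. Hcls1, the cortactin relative of blood cells, was at 46.0, 52.2 and 49.2 FPKM in Con libraries, against 23.5, 33.9 and 19.95 FPKM in Abx libraries, a difference of −0.94 (SE 0.34, limma adjusted p = 0.330). Capzb, a subunit of the protein that caps growing ends, was at 294, 354 and 263 FPKM in Con libraries, against 234, 200.5 and 208 FPKM in Abx libraries, a difference of −0.49 (SE 0.20, limma adjusted p = 0.424).

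Of the 7 other Arp2/3 subunit genes, 3 (Arpc4, Arpc5 and Arpc5l) were fitted higher and 4 lower, and none had an unadjusted p under 0.05. Actr2 and Actr3, which encode the actin-related core of the complex, lay wholly lower in Abx (28.6% of the 7, where the background was 8.73% of all genes tested), and both were picked from the list after their values were seen. Actr3 was at 182, 182 and 175 FPKM in Con libraries, against 159, 139.99 and 79.6 FPKM in Abx libraries, a difference of −0.57 (SE 0.29, limma adjusted p = 0.550). Arpc5, the most abundant of the 7, was at 246 to 396 FPKM in Con and 352 to 490.06 FPKM in Abx, a difference of 0.37 (limma adjusted p = 0.678). The subunits thus differed in direction among themselves, without any of them passing the test.

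Rac2, a small GTPase of blood cells that acts on actin assembly, was at 474, 496 and 509 FPKM in Con libraries, against 319.7, 447 and 320.4 FPKM in Abx libraries. Its groups did not overlap, and its difference was −0.46 (SE 0.20, limma adjusted p = 0.456). In the groups of nucleation promoting factors and formins 10 of 13 were fitted lower (76.9%), and in myosins and tropomyosins 7 of 9 (77.8%). The count was 8 of 11 (72.7%) in monomer binding, severing and capping, and 3 of 4 (75.0%) in the other coronins. It was 6 of 9 (66.7%) in bundling, crosslinking and membrane linking, and 2 of 3 in the paralogues. Over all genes tested 53.0% were fitted lower. Of the most abundant genes of the other groups, Lcp1 (plastin, −0.38, limma adjusted p = 0.723), Myl6 (a myosin light chain, −0.05, limma adjusted p = 0.963), Coro1b (0.07, limma adjusted p = 0.952) and Brk1 (0.05, limma adjusted p = 0.977) did not pass. Srf was under the filter, and Mrtfa, an SRF coactivator, had a difference of 0.12 (limma adjusted p = 0.975).

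**Figure D5:**
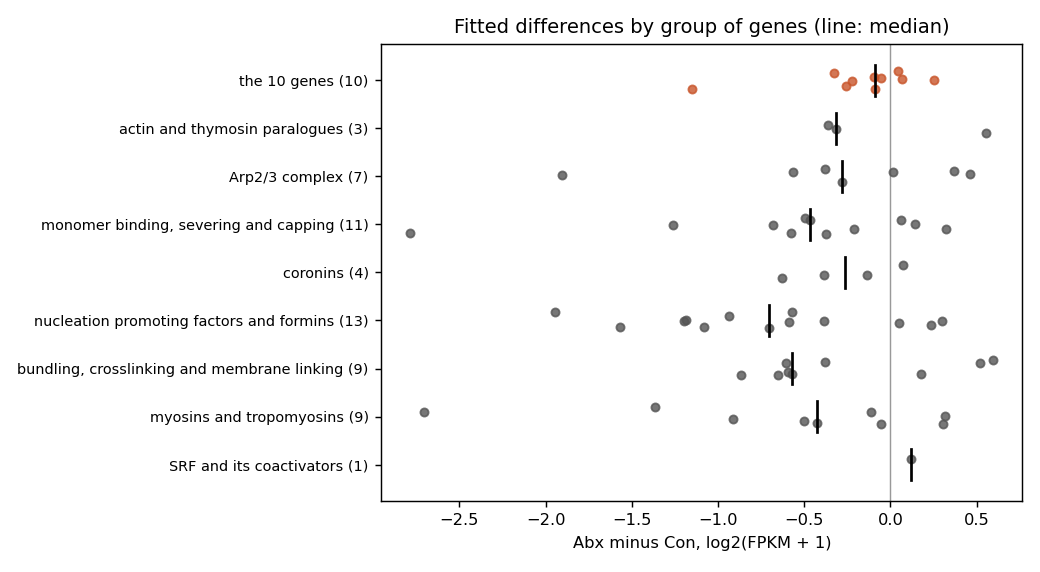
Fitted differences of Abx minus Con on the log2(FPKM + 1) scale for the 10 genes and for 8 groups of other actin cytoskeleton genes, 1 point per gene, with the number tested in parentheses and a line at each median. The median is −0.091 for the 10 genes, and it lies below 0 in every group except the one of SRF and its coactivators, which holds 1 gene.

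The cells behind each library bear on all of these values, because the 10 genes are expressed in most blood cells. In bulk RNA, fewer cells of a type and less RNA per cell cannot be told apart. Of 11 ILC2 markers, 10 reached 1 FPKM in all 6 libraries, while Il1rl1 was at 0.01 to 2.94 FPKM. Their summed FPKM was 2817 to 3222 in Con and 2094 to 2691 in Abx. Areg (657 to 783 FPKM in Con, 197 to 393 in Abx), Arg1 (577 to 675, 377 to 525) and Icos (240.5 to 289, 82.4 to 120) lay wholly lower in Abx. So did Il1rl1, near 0. Id2 was at 782 to 1053 FPKM in Con and 966 to 1315 FPKM in Abx. The groups overlapped for Id2, Klrg1, Il7r, Thy1, Gata3, Il2ra and Rora. The 9 T cell markers summed to 1223 to 1406 FPKM in Con and 2516 to 2847 FPKM in Abx, and the 8 B cell markers to 382 to 508 and 857 to 904 FPKM. Most of the T cell sum came from Trbc1 and Trbc2. Cd3d and Cd3g also lay wholly higher in Abx. Cd3d was at 4.46 to 8.32 FPKM in Con and 37.2 to 108 FPKM in Abx, and Cd3g at 93.3 to 124 and 140 to 196 FPKM. Cd8a was at 0 to 3.25 FPKM, and Cd4 was listed at 0 in all libraries except Abx library 2 (7.46 FPKM). Trac overlapped between the groups at 0.22 to 21.2 FPKM, and so did Cd3e and Cd5. Most of the B cell sum came from Ighm and Igkc, while Pax5 and Ebf1 were at most at 2.33 and 0.09 FPKM. Cd79b was lower in Abx, at 31.0 to 57.4 FPKM against 69.5 to 117 FPKM in Con. Ms4a1 was higher in Abx, at 10.8 to 19.8 FPKM against 3.98 to 5.39 FPKM in Con. The sort kept cells negative for a lineage stain, which held antibodies to TCR-β, CD3e, CD4, CD8a, B220 and NK1.1, among others. The paper gives the purity after the sort only as a lower bound. Whether cells of these lineages remained in the libraries was not tested. The 6 NK cell markers summed to 9.12 to 58.95 FPKM in Con and 268 to 431 FPKM in Abx. The Abx sum came from Gzma, at 215 to 224 FPKM (0 to 13.8 FPKM in Con), and Nkg7, at 52.2 to 212 FPKM (7.61 to 37.3 FPKM in Con). Klrb1c and Prf1 were listed at 0 in every library. Ncr1 was listed at 0 in all except Con library 1 (7.90 FPKM), and Eomes was at most at 0.01 FPKM. Erythroid markers summed to 6422 to 14823 FPKM in Con and 3166 to 8659 FPKM in Abx. Markers of mast cells and basophils summed to 324 to 434 FPKM in Con and 185 to 295 FPKM in Abx. Platelet markers, from cells rich in Tmsb4x, summed to 3.05 to 26.3 FPKM in Con and 3.76 to 52.7 FPKM in Abx. In Abx library 2, the library with the highest Tmsb4x, Pf4 was at 25.3 FPKM and Ppbp at 16.1 FPKM. In every other library Ppbp was listed at 0 and Pf4 was at most at 9.67 FPKM. The part of platelets in the Tmsb4x value of that library was not tested. Macrophage and monocyte markers summed to 127 to 364 FPKM in Con and 194 to 393 FPKM in Abx. Genes detected at 1 FPKM or more numbered 8574 to 9203 in Con and 7074 to 8193 in Abx. The part of these differences in the values of Actg1 and of the wider list was not tested.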

How the data were processed

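The deposited values are FPKM per gene, for which the authors trimmed reads with Cutadapt, aligned them in HISAT2 and quantified genes in StringTie. Their methods name a human annotation while the identifiers are those of mouse, and the labels also list mm8, mm9 and Bowtie 0.12.2. The depth of the libraries is unknown, so no counting error can be attached and the authors' count test could not be run. Members were matched by symbol and checked against the identifiers of GENCODE M21 (GRCm38). The 8718 genes that reached 1 FPKM in 3 or more of the 6 libraries were tested on log2(FPKM + 1), which understates changes of low genes, with limma 3.58.1 in R 4.3.3 (lmFit, eBayes with trend, two-sided) and Benjamini-Hochberg adjustment. The code was tested on simulated data. Ratios were compared by exact permutation. Copies were found with BLAST 2.17.0. Python 3.11.15 with numpy 2.4.6 and pandas 2.3.3 was used for the tables.

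The members and lists were chosen with earlier results of these data known. The genes named are the members, their paralogues, the listed genes with an unadjusted p under 0.05 or the highest mean of their group, the 5 genes of highest share and Xist. Actr2, Actr3, Arpc4, Arpc5l, Dock2, Eif2s3y, Rdx, Srf and the copies and cell type markers were named outside this rule, after their values were seen. The counts of 1 group of the wider list are not reported here. Alternatives were other pseudocounts, filters and scalings, a block on the replicate number, and leaving out single libraries. No pairing of libraries is stated, so the numbers were not taken to pair them in the main fit. Deviations of same-numbered libraries correlated at −0.03 to 0.01, so no pairing by number was seen, and a shared batch was not tested.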

Additional observations from a re-analysis of the deposited data

How the results depend on the processing

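The difference of Actg1 ranged from −1.31 to −0.94 over the alternatives, with a limma adjusted p of 0.0887 to 0.557, and passed 0.05 in none of them. No member was called under any alternative that kept the adjusted p. At an unadjusted p under 0.05 and a fold over 2, 1 member, 2 of the other actin cytoskeleton genes and 814 of all genes were called. Of all genes, where the main count was 5, 0 were called with pseudocounts of 0.1 and 0.01, without the filter, with median centring and with the replicate block, 3 after scaling to TPM, 5 with robust variance or no limit on the fold change, and 7 with a mean of at least 5 FPKM or quantile normalization. With 1 library left out at a time the count was 2 without Con library 3 (both higher in Abx) or Abx library 2 (both lower) and 0 without any of the others, and which genes these were was not compared. The replicate block gave Actg1 a limma adjusted p of 0.293. The median of the other actin cytoskeleton genes was −0.27 without the filter, −0.50 after scaling to TPM and −0.51 after quantile normalization, where the main value was −0.38. Scaling to TPM moved the median of all genes from −0.06 to −0.18, so part of the shift under that scaling is shared by all genes. Scaling to TPM turned the direction of Pfn1 (−0.011) and Arhgdib (−0.033). Tmsb4x went to 0 after quantile normalization, a value fixed by its ranks and not informative. With 1 library left out at a time, Tmsb4x ranged from −0.065 to 0.48, Pfn1 from −0.14 to 0.23, Arpc1b from −0.18 to 0.040 and Arhgdib from −0.071 to 0.14, each with 1 or 2 libraries whose absence turned its direction. None of these differences passed the test in any form, and the causes were not tested. The fit without the filter had mostly variances of 0 and is unreliable. With 3 libraries a group and unknown depth, small differences could not be detected.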
